A study of Mus musculus with 9 samples.

Results

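The 40 genes described here encode the machinery of macroautophagy: the kinase complexes that start it, the proteins that supply and mark the membrane, the enzymes that attach ubiquitin-like proteins to it, the receptors that bring in cargo, and a pair of transcription factors that control many autophagy genes. They were taken by name from a list, and all 40 were found among the 24421 gene symbols counted in each library. The libraries came from whole liver of C57BL/6J mice of both sexes, aged 5 weeks, that had been without food for 6 h. Of the 9 libraries, 5 came from wildtype (WT) littermates and 4 from mice in which O-GlcNAc transferase (OGT) was deleted, here OGT-deficient. OGT is the enzyme that adds the single sugar O-GlcNAc to many intracellular proteins. How OGT was deleted, which promoter drove any recombinase, and which mouse had which sex or litter is not stated in the labels. The stated numbers of mice equal the numbers of libraries, but no label ties a library to a mouse, so the p-values measure the spread between these libraries.

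In macroautophagy a double membrane grows around cytoplasm, closes into an autophagosome and fuses with a lysosome, where the contents are broken down. The ULK1 kinase complex starts the process, a class III phosphatidylinositol 3-kinase makes the lipid PI3P on the growing membrane, and conjugation enzymes couple ATG8 proteins (the LC3 and GABARAP families) to that membrane. In liver the pathway supplies amino acids and lipids during fasting and removes mitochondria and protein aggregates. Transcript levels do not measure the flow of material through the pathway, which was not analysed here.

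Library totals were 32337861 to 54130901 counts in genes. Levels are given as CPM, counts scaled to library size with TMM factors that correct for library composition. The members averaged 4.30 to 489 CPM, with at least 121 counts in every library, and all 40 passed the filter on low counts. Ogt itself was at 51.1 to 73.1 CPM in WT livers against 14.3 to 20.6 CPM in OGT-deficient livers. Reads that aligned to several places were 0.314 to 1.02 per gene count in WT and 0.205 to 0.224 in OGT-deficient libraries. Cell type markers also differed between the groups. Beside their counts, 29.4% of all genes tested were lower and 31.6% higher at an adjusted p under 0.05 in edgeR's quasi-likelihood test. Of 8 hepatocyte markers 7 were lower in OGT-deficient liver and 0 higher, with a summed level of 99192 to 118450 CPM in WT and 43180 to 55043 CPM in OGT-deficient libraries. Higher were all 7 bile duct markers tested (sum over the list 31.4 to 60.2 against 148.1 to 257.8 CPM), 8 of 9 stellate cell markers (135.7 to 332.1 against 681 to 1011 CPM), 8 of 9 recruited macrophage markers (121.8 to 164.2 against 457 to 636 CPM) and 3 of 4 neutrophil markers (5.84 to 12.4 against 31.5 to 46.5 CPM). Most of the neutrophil sum was Lcn2 (3.16 to 8.40 against 26.0 to 39.8 CPM). S100a8 (0.757 to 1.92 against 0.734 to 3.66 CPM) and S100a9 (0.590 to 1.73 against 0.930 to 3.25 CPM) overlapped between the groups, and Retnlg was not called. Of 6 Kupffer cell markers 1 was higher (360.7 to 509 against 332 to 625 CPM), and of 6 endothelial markers 1 was higher and 2 lower (290.5 to 398 against 178 to 331 CPM). Of 6 T and NK cell markers 1 was lower (4.26 to 4.85 against 4.85 to 6.20 CPM), and of 4 B cell markers 1 was higher and 1 lower (56.7 to 104.1 against 102.9 to 124.1 CPM). Spp1 is in both the bile duct and the recruited macrophage list. None of the markers that passed the filter on low counts was at 0 in any library. The part of multiply aligned reads and of cell types in the results on autophagy genes was not tested, and in whole tissue fewer cells of a type and less RNA per cell cannot be told apart.

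More of the autophagy genes fell than rose in OGT-deficient liver. Of the 40 members, 22 fell and 7 rose at an adjusted p under 0.05 in edgeR's quasi-likelihood test, and 11 did not pass. The same threshold called 61.1% of the 14104 genes tested, with 29.4% lower and 31.6% higher, against 72.5% of the members, with 55% lower and 17.5% higher. The median log2 fold change of the members was -0.25, beside 0.022 for all genes. The WT and OGT-deficient libraries did not overlap for 21 members (52.5%), 17 of those that fell and 4 of those that rose, against 51.3% of all genes. Changes of at least 2-fold were found for 5 members (12.5%, against 21.6% of all genes), Wipi1, Map1lc3a, Bnip3, Tfeb and Atg2a, and each was a fall.

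The balance of rises and falls depended on scaling and on single libraries. With upper-quartile factors, which moved the median of all genes from 0.022 to 0.14 and the share of rises among all calls from 51.8 to 62.5%, 16 members fell and 9 rose, and the members' median was -0.13. Falls numbered 18 to 23 when any 1 library was left out. Rises numbered 3 without OGT-deficient 4 and 4 without OGT-deficient 3. Ambra1 and Sqstm1 also lost their calls with no filter on low counts (adjusted p = 0.0656 and 0.0594), and Gabarap and Optn when genes needed at least 1 CPM in 4 libraries (adjusted p = 0.0544 and 0.0513). With DESeq2 size factors Pik3c3, Pik3r4 and Nbr1 passed as falls (adjusted p = 0.0489, 0.0469 and 0.0499). A set of 19 members passed the test in the same direction under each of 16 alternatives. It held 16 that fell (Ulk1, Ulk2, Atg9a, Atg2a, Wipi1, Atg3, Atg10, Atg4a, Atg4c, Atg4d, Map1lc3a, Map1lc3b, Gabarapl1, Bnip3, Bnip3l and Tfeb) and 3 that rose (Becn1, Atg7 and Atg16l1).

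**Figure D1:**
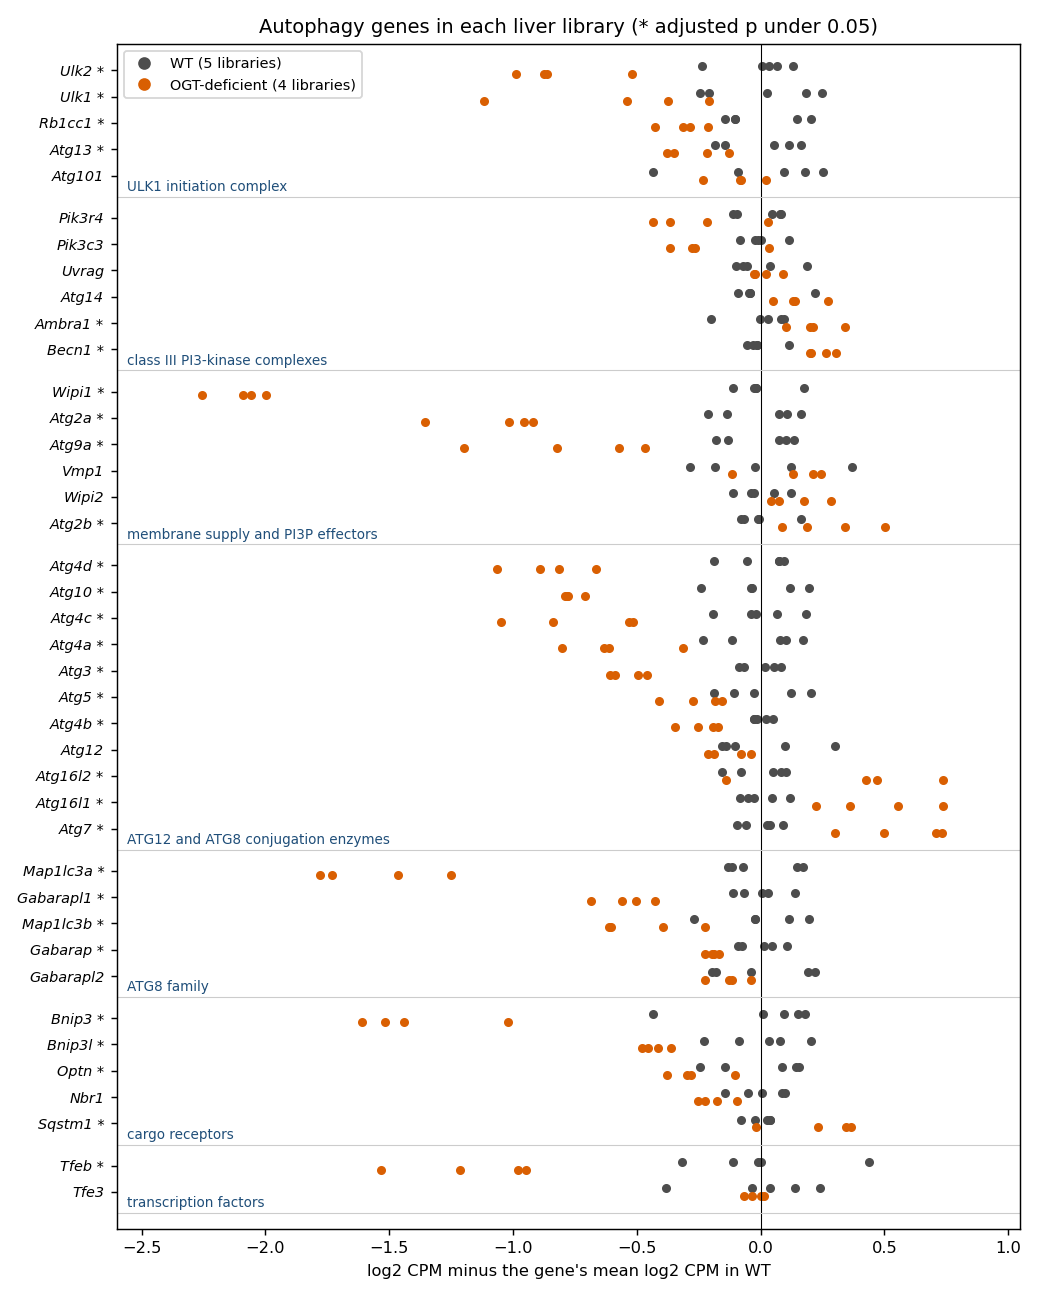
Level of each autophagy gene in every library (log2 CPM minus the gene's mean log2 CPM in WT), grouped by role, with grey points for the 5 WT and orange points for the 4 OGT-deficient libraries; asterisks mark an adjusted p under 0.05. Wipi1, Map1lc3a, Bnip3, Tfeb and Atg2a had the largest falls, and Atg7, Atg16l1, Becn1 and Ambra1 lay wholly to the right of WT.

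TFEB and TFE3 are related transcription factors that enter the nucleus when nutrients are scarce and activate genes of lysosomes and autophagy through sites with the core CACGTG. Tfeb (chromosome 17, 47737030 to 47792419, plus strand, GRCm38) was at 29.4, 29.6, 40.002, 27.3 and 23.7 CPM across WT livers 1 to 5, against 10.2, 14.97, 12.7 and 15.3 CPM across OGT-deficient livers 1 to 4. All OGT-deficient libraries were below all WT libraries, and WT 3 stood above the other WT livers. The log2 fold change of Tfeb was -1.17 (SE 0.16 and adjusted p = 3.64e-05), from 30.0 ± 6.07 CPM in WT (SD, n = 5) against 13.3 ± 2.37 CPM in OGT-deficient liver (SD, n = 4). Tfe3 was at 20.9 to 32.2 CPM in WT livers against 26.0 to 27.6 CPM in OGT-deficient livers. The OGT-deficient values of Tfe3 lay inside the WT range, and its level did not pass the test (log2 fold change -0.037, adjusted p = 0.782).

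The core CACGTG reads the same on both strands. It was looked for in the 250 bases before each RefSeq start (GRCm38.p6), where 33 of the 40 members have an entry. It was found for 4 members, Atg3, Atg5, Atg7 and Bnip3 (12.1%), against 9.54% of 10708 tested genes with an entry and 6.02% of all 32851 windows. Of these 4 genes Atg3, Atg5 (with overlap between the groups) and Bnip3 fell and Atg7 rose. Whether the core has a part in these changes was not tested. The windows shown for Atg7 and Wipi1 lie inside the span of the GENCODE gene, since the RefSeq start is downstream of its first base. The windows of Tfeb, Tfe3, Wipi1 and Atg2a hold no copy. The 4 windows with the core are shown 5′ to 3′ on the gene's strand, with CACGTG in capitals and bases covered by an annotated exon left out. Those of Wipi1 and Atg2a are shown as windows without it, from genes that fell at least 2-fold.
Atg3 (chr16:45158707-45158784, plus strand): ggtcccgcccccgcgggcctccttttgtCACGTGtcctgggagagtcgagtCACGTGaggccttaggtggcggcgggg
Atg5 (chr10:44268089-44268338, plus strand): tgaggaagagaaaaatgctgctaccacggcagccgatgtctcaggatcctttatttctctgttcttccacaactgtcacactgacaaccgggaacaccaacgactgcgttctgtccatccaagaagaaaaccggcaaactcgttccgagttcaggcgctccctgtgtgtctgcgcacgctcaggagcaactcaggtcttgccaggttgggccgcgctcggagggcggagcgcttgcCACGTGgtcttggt
Atg7 (chr6:114670846-114671095, plus strand): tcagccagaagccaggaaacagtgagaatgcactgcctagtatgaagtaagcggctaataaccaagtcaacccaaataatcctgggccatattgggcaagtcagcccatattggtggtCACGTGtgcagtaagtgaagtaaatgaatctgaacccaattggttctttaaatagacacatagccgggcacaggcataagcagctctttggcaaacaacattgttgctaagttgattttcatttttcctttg
Bnip3 (chr7:138909520-138909756, minus strand): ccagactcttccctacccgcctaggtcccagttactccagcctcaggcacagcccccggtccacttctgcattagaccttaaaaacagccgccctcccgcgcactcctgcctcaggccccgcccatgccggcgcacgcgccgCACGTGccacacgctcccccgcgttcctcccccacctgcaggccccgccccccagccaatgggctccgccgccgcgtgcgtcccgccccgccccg
Wipi1 (chr11:109611433-109611639, minus strand): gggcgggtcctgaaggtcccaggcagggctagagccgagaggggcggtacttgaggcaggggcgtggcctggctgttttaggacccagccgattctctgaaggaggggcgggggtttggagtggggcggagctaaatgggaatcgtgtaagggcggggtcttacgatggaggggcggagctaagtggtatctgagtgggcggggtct
Atg2a (chr19:6241418-6241667, plus strand): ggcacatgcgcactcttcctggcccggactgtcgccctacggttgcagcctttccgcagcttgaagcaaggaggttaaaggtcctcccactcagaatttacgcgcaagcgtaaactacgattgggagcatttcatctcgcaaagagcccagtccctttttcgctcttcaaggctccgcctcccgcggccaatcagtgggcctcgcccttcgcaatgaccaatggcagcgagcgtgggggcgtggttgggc
The core began at -94 and -71 from the start of Atg3, -14 from that of Atg5, -132 from that of Atg7 and -108 from that of Bnip3. The longer form TCACGTGA, which contains the core, was found for Atg3 alone among the members and for 1.68% of tested genes. ACGTG, which lies within CACGTG and is the core bound by hypoxia-inducible factors, was found for 13 of 33 members (39.4%, against 24.3% of tested genes). These were 6 of 19 members that fell, 2 of 5 that rose and 5 of 9 that were not called. TGACNNNGC, the antioxidant response element, was found for Atg13, Ulk2 and Vmp1 (9.09%, against 14.1%). GTAAACA, a core bound by FOXO factors, and TGATGCAA, a composite element of ATF4 and C/EBP factors, were found for 0 of 33, against 2.78% and 0.738% of tested genes. All were searched on both strands.

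The ULK1 complex, in which the kinases ULK1 and ULK2 bind the scaffold FIP200 (Rb1cc1) with ATG13 and ATG101, starts autophagosome formation. Of its 5 genes 4 fell and 0 rose (80% called, against 61.1% of all genes). Ulk2 was at 96.7, 81.8, 101, 98.6 and 105 CPM across WT livers 1 to 5, against 48.6, 67.1, 52.5 and 52.9 CPM across OGT-deficient livers 1 to 4. Every OGT-deficient value of Ulk2 was below every WT value, with a log2 fold change of -0.81 (SE 0.11 and adjusted p = 3.56e-05). Ulk1 was at 168, 139.6, 196, 188 and 143 CPM across WT livers 1 to 5, against 76.2, 128, 114 and 143 CPM across OGT-deficient livers 1 to 4. For Ulk1, OGT-deficient 1 was the lowest library and OGT-deficient 4 overlapped the lowest WT livers, and this was the widest relative spread of any member among OGT-deficient livers (coefficient of variation 24.9%). Its log2 fold change was -0.54 (SE 0.17 and adjusted p = 0.0135).

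The scaffold gene Rb1cc1 was at 46.7, 46.7, 45.4, 57.9 and 55.6 CPM across WT livers 1 to 5, against 40.4, 41.3, 37.4 and 43.4 CPM across OGT-deficient livers 1 to 4. The groups did not overlap, and the log2 fold change was -0.31 (SE 0.092 and adjusted p = 0.0102), with an adjusted p of 0.0745 under upper-quartile factors. Atg13, which links the kinases to the scaffold, was at 67.0 to 85.2 CPM in WT livers against 58.6 to 69.8 CPM in OGT-deficient livers, with overlap. Atg13 fell by 0.27 on the log2 scale (adjusted p = 0.0240), and the adjusted p was 0.153 under upper-quartile factors and 0.0531 to 0.0745 without WT 3 or 4 or OGT-deficient 3. Atg101, which stabilises ATG13, was at 27.4 to 44.1 CPM in WT livers against 31.5 to 37.6 CPM in OGT-deficient livers and did not pass (log2 fold change -0.11, adjusted p = 0.445).

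The class III PI3-kinase VPS34 (Pik3c3) works with the subunit VPS15 (Pik3r4) and Beclin 1 (Becn1). They are joined by ATG14 in the complex that makes autophagosomes or by UVRAG in the one that acts on endosomes, and AMBRA1 binds Beclin 1. Of these 6 genes 2 rose and 0 fell (33.3% called, against 61.1% of all genes). Becn1 was at 59.8, 60.8, 67.4, 61.5 and 61.6 CPM across WT livers 1 to 5, against 71.4, 71.5, 76.7 and 74.6 CPM across OGT-deficient livers 1 to 4. Every OGT-deficient value of Becn1 was above every WT value, with a log2 fold change of 0.24 (SE 0.068 and adjusted p = 0.00823). Cntd1 on the opposite strand covers 43.9% of the exonic bases of Becn1, so the value of Becn1 is uncertain. Cntd1 was itself at 0.0842 to 0.381 CPM in WT and 0.0504 to 0.367 CPM in OGT-deficient libraries.

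Ambra1 was at 37.2, 30.3, 36.9, 35.6 and 34.8 CPM across WT livers 1 to 5, against 37.5, 44.2, 40.1 and 40.3 CPM across OGT-deficient livers 1 to 4. The groups came close without overlapping, and the log2 fold change was 0.21 (SE 0.082 and adjusted p = 0.0392). The adjusted p of Ambra1 was 0.0546 to 0.156 without WT 2, 4 or 5 or OGT-deficient 2, 3 or 4. It was 0.122 with the replicate number as a block. The 2 kinase subunits had lower values that did not pass the test. Pik3c3 was at 23.6 to 27.1 CPM in WT livers against 19.4 to 25.6 CPM in OGT-deficient livers (log2 fold change -0.21, adjusted p = 0.0600) and Pik3r4 at 25.4 to 29.0 CPM in WT livers against 20.3 to 28.0 CPM in OGT-deficient livers (log2 fold change -0.24, adjusted p = 0.0555). In both genes OGT-deficient 2 lay within the WT range, and the adjusted p was 0.00706 for Pik3c3 and 0.00703 for Pik3r4 without it. Atg14 was at 24.8 to 30.8 CPM in WT livers against 27.4 to 31.9 CPM in OGT-deficient livers (log2 fold change 0.15, adjusted p = 0.152). As a rise it passed with upper-quartile factors (adjusted p = 0.0104) and without WT 4 (adjusted p = 0.0404). Uvrag was at 48.1 to 58.7 CPM in WT livers against 50.6 to 54.9 CPM in OGT-deficient livers, near no difference (log2 fold change 0.012, adjusted p = 0.903).

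Genes for proteins that supply lipid to the growing membrane or bind PI3P on it included the member with the largest change. Of the 6 genes of this role 3 fell and 1 rose (66.7% called, against 61.1% of all genes). Wipi1, which encodes a PI3P-binding propeller protein (chromosome 11, 109573331 to 109611967, minus strand), was at 23.3, 21.8, 26.6, 23.1 and 23.2 CPM across WT livers 1 to 5, against 4.93, 5.90, 5.66 and 5.53 CPM across OGT-deficient livers 1 to 4. The groups were far apart and each varied little, with coefficients of variation of 7.47% in WT and 7.46% in OGT-deficient livers. Wipi1 fell by 76.7%, a log2 fold change of -2.10 (SE 0.095 and adjusted p = 7.11e-09). Its relative Wipi2, which recruits ATG16L1 to the membrane, was at 91.5 to 108 CPM in WT livers against 102 to 120.2 CPM in OGT-deficient livers. Wipi2 did not pass the test (log2 fold change 0.14, adjusted p = 0.132), but passed as a rise with upper-quartile factors (adjusted p = 0.00687).

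Atg2a, which encodes a lipid transfer protein (chromosome 19, 6241668 to 6262335, plus strand), was at 105, 86.0, 107, 112 and 90.7 CPM across WT livers 1 to 5, against 39.0, 51.4, 49.3 and 52.7 CPM across OGT-deficient livers 1 to 4. No values overlapped, and Atg2a fell by 52.0% (log2 fold change -1.06 with SE 0.11, adjusted p = 5.06e-06). Its relative Atg2b was at 44.9 to 53.1 CPM in WT livers against 50.3 to 67.2 CPM in OGT-deficient livers, with overlap, and rose by 0.29 on the log2 scale (adjusted p = 0.0177). The adjusted p of Atg2b was 0.0631 to 0.0933 without OGT-deficient 2 or 4, and 0.0606 with the replicate number as a block. Atg9a, the scramblase that travels on vesicles to the forming membrane, was at 112, 92.3, 115, 110.0 and 95.5 CPM across WT livers 1 to 5, against 45.5, 75.7, 59.1 and 70.2 CPM across OGT-deficient livers 1 to 4. All OGT-deficient values of Atg9a were below WT, and OGT-deficient 1 was the lowest library for Atg9a and Atg2a alike. The log2 fold change of Atg9a was -0.74 (SE 0.14 and adjusted p = 0.000416). Vmp1, a scramblase of the endoplasmic reticulum, was at 104 to 163 CPM in WT livers against 117 to 149.8 CPM in OGT-deficient livers, with overlap (log2 fold change 0.11, adjusted p = 0.490).

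**Figure D2:**
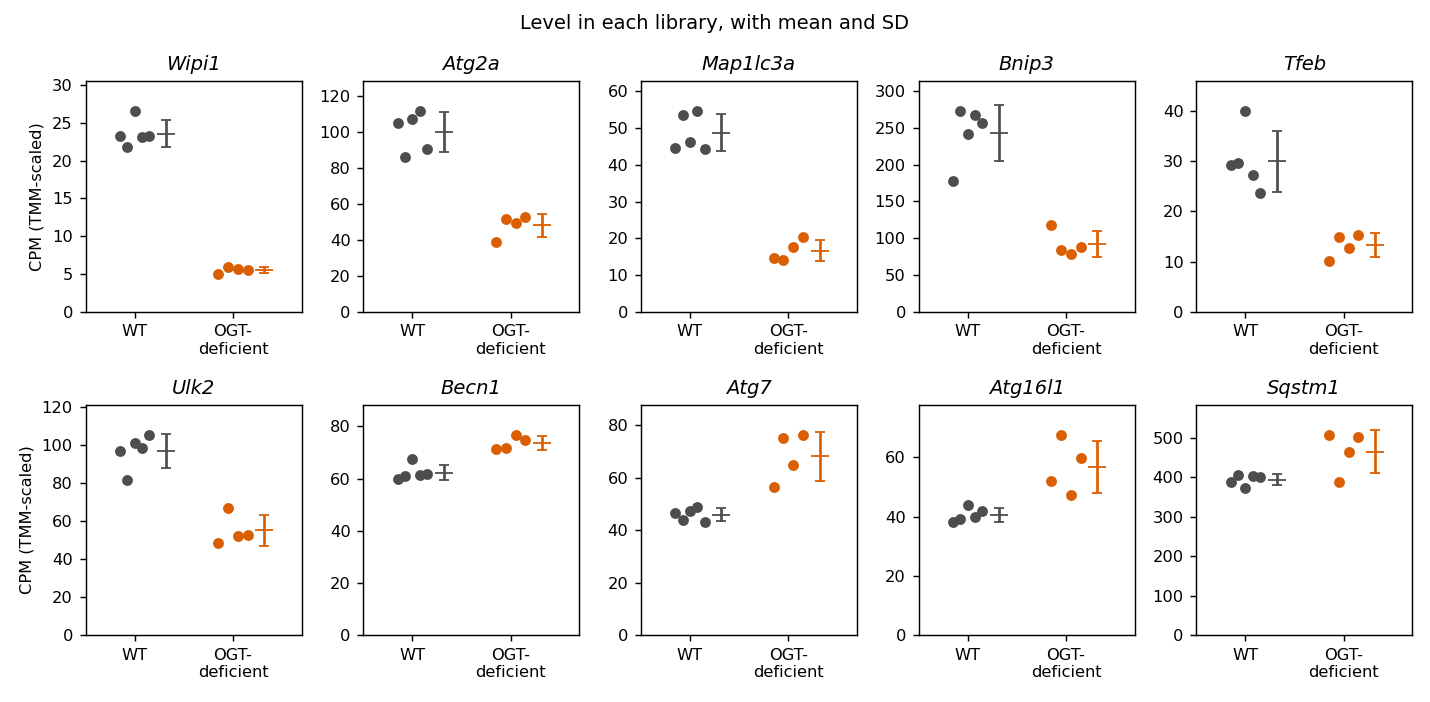
CPM of 10 autophagy genes in each library, with group mean and SD to the right of each set of points (WT, n = 5; OGT-deficient, n = 4), on linear axes that start at 0. Wipi1, Atg2a, Map1lc3a, Bnip3, Tfeb and Ulk2 were lower in every OGT-deficient library, Becn1, Atg7 and Atg16l1 higher in every one, and Sqstm1 overlapped through OGT-deficient 2.

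The conjugation enzymes moved in both directions. ATG7 activates ATG12 and the ATG8 proteins, ATG10 and ATG3 carry them onward, and the ATG12-ATG5-ATG16L1 complex directs ATG8 to lipid. The ATG4 proteases trim ATG8 proteins before conjugation and release them after it. Of these 11 genes 7 fell and 3 rose (90.9% called, against 61.1% of all genes). All 4 protease genes fell, without overlap between the groups, which also held for 51.3% of all genes in either direction. Atg4d was at 50.01, 60.8, 59.9, 60.0 and 54.8 CPM across WT livers 1 to 5, against 27.2, 32.4, 30.7 and 35.9 CPM across OGT-deficient livers 1 to 4, a log2 fold change of -0.86 (SE 0.10 and adjusted p = 8.21e-06). Atg4c was at 14.4, 16.1, 16.3, 18.8 and 17.3 CPM across WT livers 1 to 5, against 7.97, 11.4, 9.22 and 11.6 CPM across OGT-deficient livers 1 to 4, a log2 fold change of -0.72 (SE 0.12 and adjusted p = 0.000288). Atg4a fell by 0.59 on the log2 scale (adjusted p = 0.00254). Atg4b, which acts on the widest range of ATG8 proteins, fell by 0.24 (adjusted p = 0.00869, and 0.132 under upper-quartile factors). Kri1 covers 19.3% of the exonic bases of Atg4d on the opposite strand, which leaves the value of Atg4d uncertain. Kri1 was at 6.01 to 7.60 CPM in WT and 6.10 to 8.47 CPM in OGT-deficient libraries. Atg4a is uncertain too, since 15.7% of its 50-base stretches occur in Syt6, which had 0 counts in every library.

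Atg10, the E2-like enzyme for ATG12, was at 6.00, 5.69, 5.11, 4.44 and 5.13 CPM across WT livers 1 to 5, against 3.06, 3.05, 3.03 and 3.21 CPM across OGT-deficient livers 1 to 4. The log2 fold change of Atg10 was -0.78 (SE 0.13 and adjusted p = 0.000267). Atg3, the E2-like enzyme for ATG8 proteins, was at 70.5 to 79.4 CPM in WT livers against 49.1 to 54.5 CPM in OGT-deficient livers, a log2 fold change of -0.54 (SE 0.073 and adjusted p = 4.06e-05). Both E2 genes were lower in every OGT-deficient library than in any WT library. The E1 gene Atg7 (chromosome 6, 114643097 to 114860614, plus strand) went the other way, at 43.0 to 49.0 CPM in WT livers against 56.6 to 76.4 CPM in OGT-deficient livers, also without overlap. Its rise was 48.3%, a log2 fold change of 0.57 (SE 0.094 and adjusted p = 0.000205). Atg16l1, the subunit that finds the membrane, was at 38.2 to 44.0 CPM in WT livers against 47.3 to 67.5 CPM in OGT-deficient livers, without overlap (log2 fold change 0.48 with SE 0.10, adjusted p = 0.00114).

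Atg16l2, a relative of Atg16l1, was at 7.46 to 8.91 CPM in WT livers against 7.54 to 13.8 CPM in OGT-deficient livers, with OGT-deficient 2 in the WT range. Its log2 fold change was 0.40 (SE 0.15 and adjusted p = 0.0327), and the adjusted p was 0.0637 to 0.160 without WT 1 or 3 or OGT-deficient 1, 3 or 4. With the replicate number as a block it was 0.0653. Atg5, the partner of ATG12, was at 43.6 to 57.2 CPM in WT livers against 37.4 to 44.6 CPM in OGT-deficient livers, with overlap. The log2 fold change of Atg5 was -0.26 (SE 0.094 and adjusted p = 0.0294), and the adjusted p was 0.211 under upper-quartile factors and 0.0688 to 0.0924 without WT 2 or 5 or OGT-deficient 3. With the replicate number as a block it was 0.0654. Atg12 itself was at 28.5 to 39.1 CPM in WT livers against 27.4 to 30.9 CPM in OGT-deficient livers and did not pass (log2 fold change -0.14, adjusted p = 0.252).

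The ATG8 proteins coat the autophagosome membrane and bind receptors. Of their 5 genes 4 fell and 0 rose (80% called, against 61.1% of all genes). Map1lc3a (chromosome 2, 155276297 to 155278073, plus strand) was at 44.7, 53.7, 46.1, 54.6 and 44.3 CPM across WT livers 1 to 5, against 14.6, 14.1, 17.5 and 20.4 CPM across OGT-deficient livers 1 to 4. A wide gap separated the groups, and Map1lc3a fell by 65.8% (log2 fold change -1.55 with SE 0.12, adjusted p = 4.94e-07). Map1lc3b, the form most used to mark autophagosomes, was at 123, 170.0, 146, 146 and 161 CPM across WT livers 1 to 5, against 97.0, 113, 97.5 and 127 CPM across OGT-deficient livers 1 to 4. The only overlap was that OGT-deficient 4 lay above WT 1, and the log2 fold change of Map1lc3b was -0.46 (SE 0.11 and adjusted p = 0.00313). Gabarapl1 was at 525, 578, 542, 625 and 568 CPM across WT livers 1 to 5, against 352, 384, 399.8 and 422 CPM across OGT-deficient livers 1 to 4. Every OGT-deficient value of Gabarapl1 was lower than WT, with a log2 fold change of -0.54 (SE 0.087 and adjusted p = 0.000153). A gene on the opposite strand, 1700101I11Rik, covers 28.3% of the exonic bases of Gabarapl1 and was at no more than 0.196 CPM in any library, which leaves the value of Gabarapl1 uncertain.

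Gabarap was at 151, 174, 153, 163 and 166 CPM across WT livers 1 to 5, against 144, 138, 141 and 141 CPM across OGT-deficient livers 1 to 4. The groups did not overlap, but Gabarap fell by only 12.7% (log2 fold change -0.20 with SE 0.072, adjusted p = 0.0303). The adjusted p of Gabarap was 0.397 under upper-quartile factors and 0.0542 to 0.0670 without WT 2, 4 or 5 or OGT-deficient 2 or 3. Gabarap also lost its call with the replicate number as a block, and passed under 8 of 16 alternatives. Gabarapl2 was at 51.1, 67.5, 50.5, 56.5 and 66.2 CPM across WT livers 1 to 5, against 53.5, 53.1, 49.6 and 56.4 CPM across OGT-deficient livers 1 to 4. The groups overlapped for Gabarapl2 and the test was not passed (log2 fold change -0.13, adjusted p = 0.262).

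Levels of different genes were set side by side per kilobase of exon (CPM per kb, mean ± SD). The length takes in every annotated exon of a gene, 7.517 kb for Map1lc3b and 1.181 kb for Map1lc3a. Which transcripts were present was not examined, and the order of genes and their shares depend on these lengths. In CPM, not divided by length, Map1lc3b was above Map1lc3a, at 149 against 48.7 in WT and 108.5 against 16.7 in OGT-deficient liver. In WT, Gabarapl1 was the highest of the family at 282 ± 19.0, followed by Gabarap at 87.5 ± 5.12 and Map1lc3a at 41.2 ± 4.27. Gabarapl2 at 25.1 ± 3.48 and Map1lc3b at 19.8 ± 2.37 were the lowest on this scale, and their ranges met. In OGT-deficient liver Gabarapl1 was at 193.5 ± 14.5 and Gabarap at 76.4 ± 1.29. Gabarapl2 came next at 22.9 ± 1.20, while Map1lc3a at 14.1 ± 2.46 and Map1lc3b at 14.4 ± 1.89 did not differ beyond their spread. The share of Map1lc3a in the family's summed level per kb ranged over 8.15 to 9.50% in WT livers against 3.79 to 5.02% in OGT-deficient ones. The share of Gabarap was 18.1 to 19.7% and 22.1 to 25.8%, and that of Gabarapl2 was 4.97 to 6.19% and 6.58 to 7.64%. The shares of these 3 genes did not overlap between the groups, lower for Map1lc3a and higher for Gabarap and Gabarapl2, whose own fitted log2 fold changes were below 0. The shares of Gabarapl1 (60.03 to 63.5% and 58.1 to 61.2%) and Map1lc3b (3.91 to 4.73% and 4.00 to 4.90%) overlapped.

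**Figure D3:**
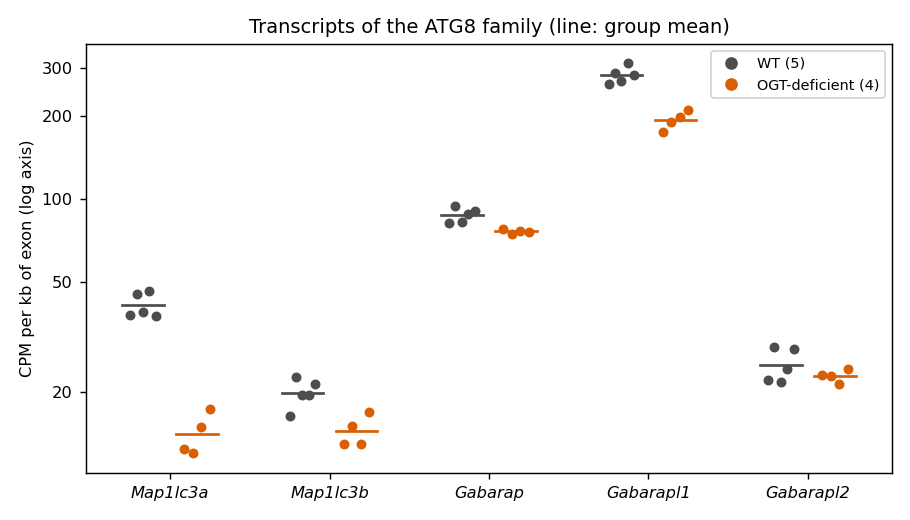
Level of the 5 ATG8 transcripts in each library, as CPM per kilobase of merged exon on a log axis, with lines at the group means (WT, n = 5; OGT-deficient, n = 4). Gabarapl1 was highest in both groups, and on this scale Map1lc3a went from above Gabarapl2 in WT to the level of Map1lc3b in OGT-deficient liver. The order of genes depends on the exon lengths used.

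Cargo receptors carry a motif that binds ATG8 proteins. p62 (Sqstm1) and NBR1 bring in ubiquitinated proteins, optineurin (Optn) bacteria and damaged mitochondria, and BNIP3 and NIX (Bnip3l) mark mitochondria for removal. Of these 5 genes 3 fell and 1 rose (80% called, against 61.1% of all genes). Bnip3 (chromosome 7, 138890836 to 138909519, minus strand) was at 178, 273, 242, 267 and 257 CPM across WT livers 1 to 5, against 118, 84.0, 78.8 and 88.6 CPM across OGT-deficient livers 1 to 4. WT 1 was the lowest of its group and OGT-deficient 1 the highest of its own, yet the groups did not overlap. Bnip3 fell by 62.0% (log2 fold change -1.40 with SE 0.15, adjusted p = 5.20e-06). Bnip3l was at 88.8, 119.7, 98.0, 106 and 109.9 CPM across WT livers 1 to 5, against 76.0, 80.8, 74.7 and 78.1 CPM across OGT-deficient livers 1 to 4. Every OGT-deficient value of Bnip3l was below WT, with a log2 fold change of -0.43 (SE 0.090 and adjusted p = 0.00111). Optn was at 87.6, 103, 81.6, 108 and 107 CPM across WT livers 1 to 5, against 79.7, 78.8, 74.5 and 90.0 CPM across OGT-deficient livers 1 to 4. The groups overlapped for Optn, with a log2 fold change of -0.27 (SE 0.10 and adjusted p = 0.0334). Its adjusted p was 0.207 under upper-quartile factors and 0.0531 to 0.104 without WT 2, 4 or 5 or OGT-deficient 1, 2 or 3. Optn also lost its call with the replicate number as a block, and passed under 7 of 16 alternatives.

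Sqstm1 (chromosome 11, 50199366 to 50210827, minus strand), also known as a target gene of the antioxidant factor NRF2, was at 388, 405, 373, 404 and 401 CPM across WT livers 1 to 5, against 507, 388, 462 and 500.4 CPM across OGT-deficient livers 1 to 4. OGT-deficient 1, 3 and 4 were above all WT livers and OGT-deficient 2 was among them. The log2 fold change of Sqstm1 was 0.24 (SE 0.091 and adjusted p = 0.0372). Its adjusted p was 0.0534 to 0.154 without WT 1, 3, 4 or 5 or OGT-deficient 1, 3 or 4. Sqstm1 also lost its call with the replicate number as a block, and passed under 7 of 16 alternatives. The gene 3010026O09Rik on the opposite strand covers 17.3% of the exonic bases of Sqstm1 and itself rose, from 5.58 to 8.93 CPM in WT to 8.70 to 13.1 CPM in OGT-deficient libraries (log2 fold change 0.60), so the value of Sqstm1 is uncertain. Nbr1 was at 264, 223, 238, 261 and 247 CPM across WT livers 1 to 5, against 211, 231, 207 and 218 CPM across OGT-deficient livers 1 to 4. The groups overlapped, and the lower level of Nbr1 did not pass (log2 fold change -0.19, adjusted p = 0.0538, and 0.0277 to 0.0434 without WT 2 or OGT-deficient 2). Per kb of exon, Sqstm1 at 117 ± 4.11 and Bnip3 at 107 ± 16.9 CPM did not differ beyond their spread in WT. In OGT-deficient liver they were far apart, at 138 ± 16.2 and 40.8 ± 7.86 CPM per kb. In CPM, not divided by length, Sqstm1 was already the higher in WT, at 394 against 243.

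Many of these genes come in pairs of relatives, and a ratio taken within a library does not depend on how libraries are scaled. The log2 ratios of 8 pairs are given as a description with no test, since the pairs were chosen after the gene values were seen. In each pair the gene with the lower fold change was set over its partner, so the common direction follows from that order. In 6 pairs the ratio was lower in every OGT-deficient library than in every WT library, and the choice of pairs bears on that count. The mean log2 ratio of Wipi1 to Wipi2 went from -2.07 ± 0.17 to -4.31 ± 0.075 (SD). That of Atg2a to Atg2b went from 1.07 ± 0.11 to -0.27 ± 0.13, so that Atg2a had the higher CPM of the pair in all WT libraries and the lower in all OGT-deficient ones. Tfeb to Tfe3 went from 0.12 ± 0.15 to -1.03 ± 0.25 and Map1lc3a to Map1lc3b from -1.61 ± 0.18 to -2.71 ± 0.22. These 4 ratios had differences of more than 1 on the log2 scale.

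Bnip3 to Bnip3l went from 1.21 ± 0.13 to 0.24 ± 0.27 and Gabarapl1 to Gabarapl2 from 3.29 ± 0.18 to 2.87 ± 0.12. The ratio of Ulk2 to Ulk1 overlapped between groups (difference -0.25). So did that of Atg16l2 to Atg16l1 (difference -0.10), with a difference of 0.16 without OGT-deficient 2.

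**Figure D4:**
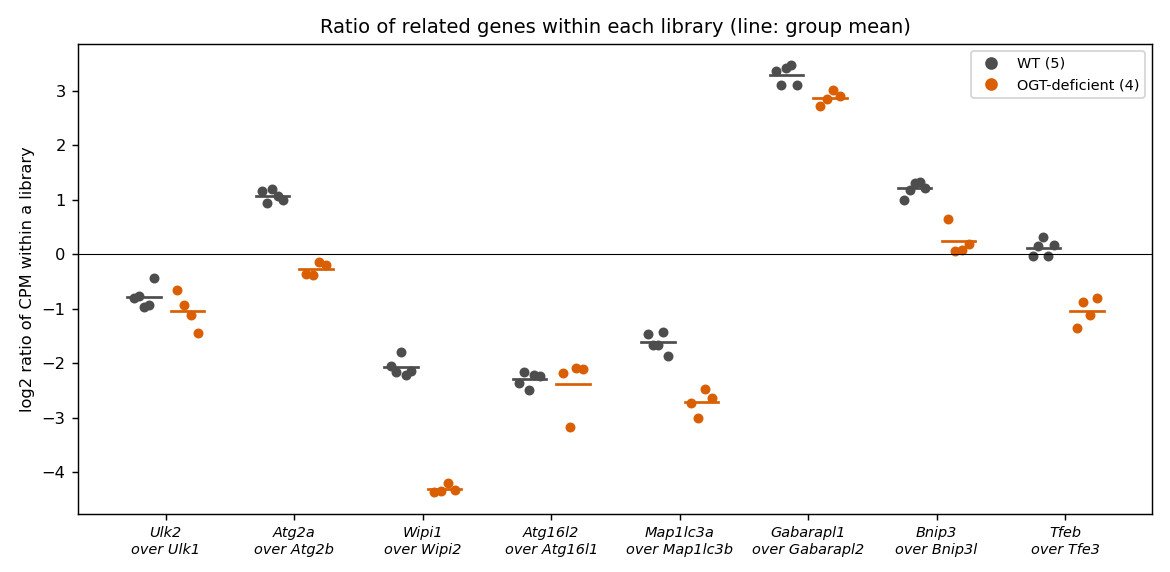
Log2 ratio of CPM for 8 pairs of related genes within each library, with lines at the group means (WT, n = 5; OGT-deficient, n = 4). The gene with the lower fold change is set over its partner, which gives the common direction. In 6 pairs all OGT-deficient libraries lay below all WT libraries, and the gap was widest for Wipi1 over Wipi2.

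Other genes of the pathway were taken from 4 lists, of which 68 genes were found and 67 passed the filter. Of these 16 rose and 21 fell (55.2%, against 61.1% of all genes), and their median log2 fold change was -0.0083. Among 22 genes listed under mTORC1 and AMPK control, 5 rose and 10 fell (68.2%, against 61.1% of all genes). The list holds subunits of the kinases mTORC1 and AMPK, which restrain and promote autophagy, and other genes such as Stk11, Tsc2, Foxo1 and Foxo3. Prkab2, a regulatory subunit of AMPK, was at 2.33 ± 0.346 CPM in WT (SD, n = 5) against 5.88 ± 0.290 CPM in OGT-deficient liver (SD, n = 4), which is a log2 fold change of 1.34 (SE 0.14 and adjusted p = 5.39e-06). Akt1s1, an inhibitory partner of mTORC1, rose by 0.87 on the log2 scale. Stk11, the kinase LKB1 that activates AMPK, was at 127 ± 11.05 CPM in WT (SD, n = 5) against 78.4 ± 4.87 CPM in OGT-deficient liver (SD, n = 4), which is a log2 fold change of -0.69 (SE 0.085 and adjusted p = 1.90e-05). Sesn3, a sestrin, fell by 0.81 on the log2 scale.

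Among 17 other cargo receptors 2 rose and 5 fell (41.2%, against 61.1% of all genes). Calcoco1 was at 72.1 ± 4.69 CPM in WT (SD, n = 5) against 35.2 ± 1.47 CPM in OGT-deficient liver (SD, n = 4), which is a log2 fold change of -1.03 (SE 0.075 and adjusted p = 2.67e-07). Fam134b, for a receptor of endoplasmic reticulum, was at 94.5 ± 7.47 CPM in WT (SD, n = 5) against 47.9 ± 7.78 CPM in OGT-deficient liver (SD, n = 4), which is a log2 fold change of -0.98 (SE 0.11 and adjusted p = 7.86e-06). Ccpg1 and Rtn3, for other receptors of that organelle, rose by 0.36 and 0.35 on the log2 scale (adjusted p = 0.00206 and 0.0110, the latter 0.0581 without OGT-deficient 4). Pigb covers 28.9% of the exonic bases of Ccpg1 on the opposite strand, so the value of Ccpg1 is uncertain.

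Of 14 genes for fusion of autophagosomes with lysosomes 6 rose and 2 fell (57.1%, against 61.1% of all genes). Subunits of the HOPS and CORVET tethering complexes were among both. Vps18 was at 26.2 ± 2.79 CPM in WT (SD, n = 5) against 46.6 ± 2.80 CPM in OGT-deficient liver (SD, n = 4), which is a log2 fold change of 0.83 (SE 0.089 and adjusted p = 6.20e-06). Vps11 rose by 0.49 and Vps41 fell by 0.44 on the log2 scale. Stx17, the SNARE protein of the completed autophagosome, was at 41.9 ± 3.11 CPM in WT (SD, n = 5) against 18.4 ± 2.28 CPM in OGT-deficient liver (SD, n = 4), which is a log2 fold change of -1.19 (SE 0.10 and adjusted p = 6.84e-07) and the largest fall of the 4 lists. Of 14 tested accessory factors 3 rose and 4 fell (50%, against 61.1% of all genes). They included Trp53inp1, a p53 target (log2 fold change 0.97), and Bcl2, whose protein binds Beclin 1 (1.27). Dapk1, a kinase that phosphorylates Beclin 1, and Zfyve1, a marker of sites where autophagosomes form, fell by 0.94 and 0.51 on the log2 scale.

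**Figure D5:**
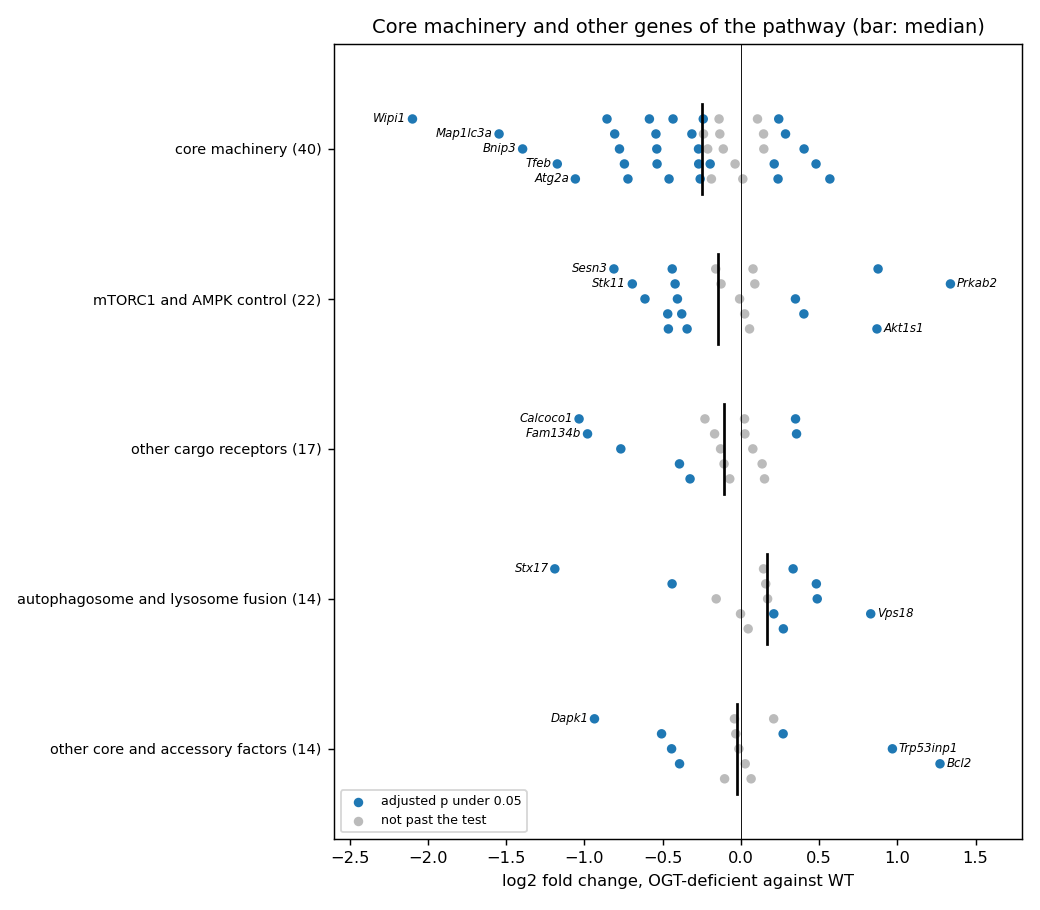
Log2 fold change (OGT-deficient against WT) of the 40 core autophagy genes and of 67 other genes of the pathway in 4 lists; blue points passed an adjusted p under 0.05, black bars are medians and vertical offsets only separate points. The core machinery had its median at -0.25, and the fusion list had its median at 0.16.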

How the data were processed

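RNA from whole liver was sequenced in 5 WT and 4 OGT-deficient libraries, grouped by the labels. The submitters' processing notes name TopHat2 2.1.0, HTSeq 0.9.1 and mm10 (GRCm38). The authors deposited whole-number read counts per gene symbol, without normalization; no source used here gives the annotation release or strand setting. Reads outside genes (8.95 to 10.7%) and reads overlapping several genes (1.78 to 2.17%) are separate lines and stayed out of library sizes and tests. Pairs of libraries within a group differed beyond sampling noise (chi-square per degree of freedom at least 23.9).

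The count test was edgeR 4.0.16 in R 4.3.3: filterByExpr, TMM and the quasi-likelihood F test on group over 14104 genes, with Benjamini-Hochberg adjustment and a threshold of 0.05. SE is the absolute log2 fold change divided by the square root of F. Values in every library are given for up to 3 called members of each role with the largest change and for all ATG8 genes and receptors, other members by range or fold change. Other pathway genes with values had the smallest p, up to 2 per direction and list, and the remaining AMPK subunit genes are given beside Prkab2. The members and lists were chosen with earlier results of these data known. Exon lengths, coordinates and overlaps came from GENCODE M21 (GRCm38), promoter windows from RefSeq. Genes with over 10% of exonic bases covered by another gene, or of 50-base stretches shared with one, are given as uncertain. Alternatives were DESeq2 size factors, upper-quartile factors, no filter, CPM of at least 1 in 4 libraries, DESeq2 1.42.0, limma 3.58.1 (voom), the replicate number as a block, and leaving out each library. Ratios of paralogues were added after seeing the data and are given without a test. Figures used matplotlib 3.10.9.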

Additional observations from a re-analysis of the deposited data

Results flagged for a closer look

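Each member was examined in both groups for a library that stood apart, by the gap to its nearest neighbour over the group's range (Dixon's criterion). Of 80 sets of values 4 were singled out, as many as the 1 in 20 that chance gives. Becn1 in WT 3, at 67.4 CPM, stood above 59.8 to 61.6 CPM in the other WT libraries and below all OGT-deficient ones. In WT 4, Atg14 at 30.8 CPM stood above 24.8 to 25.7 CPM, and Atg2b at 53.1 CPM above 44.9 to 47.2 CPM. Atg10 in OGT-deficient 4, at 3.21 CPM, stood above 3.03 to 3.06 CPM in the other OGT-deficient libraries.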

How the results depend on the processing

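Across 16 alternatives the fold changes of the 40 members gave 640 comparisons, of which 560 kept direction and side of the threshold, 54 lost a call, 16 gained one and 10 changed sign. The changes of sign concerned genes that were not called: Atg101 with upper-quartile factors (0.0071), Tfe3 with upper-quartile factors (0.085) and Uvrag with no filter (-0.00028) and with the replicate block (-0.0090). Leaving out a library also turned Uvrag (-0.024 to 0.063), Tfe3 (-0.12 to 0.025) and the ratio of Atg16l2 to Atg16l1 (-0.196 to 0.163). Members that rose numbered 7, against 3 to 6 when a library was left out, 5 with no filter and 9 with upper-quartile factors. Members that fell numbered 22, against 16 with upper-quartile factors and 25 with DESeq2 size factors, the DESeq2 Wald test or limma voom. Counts of the other pathway genes stayed within 1.5 times. With the replicate number as a block over the 8 libraries with numbers 1 to 4, 3 members rose and 19 fell, and 7859 genes were called in place of 8614. The correlations of same-numbered libraries' deviations from their group means were 0.0525, -0.103, 0.0220 and 0.104, so the numbers were not taken to pair the libraries. The cause of these differences was not tested.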
